A study of Mus musculus with 8 samples.

Results

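Interleukin-10 (IL-10) and the cytokines of the IL-12 family are messengers between immune cells, and 8 genes that encode such cytokines or their receptor chains are described here: Il10, Ebi3, Il12a, Il10ra, Il27ra, Il12rb1, Il12rb2 and Il6st. They were chosen by symbol among the 52459 genes listed in the expression table, and all 8 were found. RNA was sequenced from regulatory T cells (Treg cells) in 8 libraries, which form 4 groups of 2 by genotype and by stimulation. WT cells were CD4+CD25hi YFPcre- and Stim1/2-deficient cells were CD4+CD25hi YFPcre+. Both were sorted from pooled spleens and lymph nodes of several healthy female mice, heterozygous for Foxp3-YFPcre and carrying Stim1 fl/fl and Stim2 fl/fl on a C57BL/6 background. All cells therefore carried the floxed alleles, the Foxp3 promoter on the X chromosome drove Cre, and genotype was bound to the YFPcre allele. STIM1 and STIM2 sense calcium in the endoplasmic reticulum and open the CRAC channel at the plasma membrane. Cells were left unstimulated or were stimulated for 16 h with 1 µg/ml of plate-bound anti-CD3 and anti-CD28. The unstimulated WT libraries are replicates 3 and 4, and each other group holds replicates 1 and 2.

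IL-10 is secreted by Treg cells and restrains inflammation through a receptor made of IL-10Rα, encoded by Il10ra, and the shared chain encoded by Il10rb. The IL-12 family consists of paired subunits. EBI3, from Ebi3, joins p35, from Il12a, in IL-35, which Treg cells are known to make, and joins p28, from Il27, in IL-27. The receptor chains are shared as well. Il12rb1 and Il12rb2 encode the receptor of IL-12, Il27ra and Il6st encode that of IL-27, and gp130, from Il6st, also serves IL-6 and its relatives. These receptors signal through Janus kinases and STAT transcription factors.

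The values are normalized counts, which are read counts of a gene divided by 1 size factor per library, and where a gene is said to count a value, that value is in normalized counts. Depth was 11851853 to 16306540 reads on genes per library, so that 1 read stands for 0.759 to 1.48 normalized counts. Log2 fold changes were fitted with limma after adding a pseudocount of 1, for the 15419 genes whose mean reached 10 normalized counts. Calls required a p under 0.05 after Benjamini-Hochberg adjustment over all tested genes and a change of more than 1.5-fold. Of the 8 genes, 7 were tested and Il12a was too low. Each sample was sorted from a pool of mice, so the p-values measure the spread between pools and not between single animals. Without stimulation, Stim1 counted 1139 and 1377 in WT and 1538 and 1868 in libraries labelled Stim1/2-deficient. For Stim2 these values were 906 and 908 in WT against 904 and 744. Neither gene was called by genotype in either state, and counts over whole genes do not separate the deleted exons. The second genotype is therefore named by its label throughout, as the labelled libraries. The paper gives other evidence for the deletion. It reports loss of Stim1 and Stim2 expression by RT-PCR in Treg cells of male mice. In heterozygous female mice it reports that YFP+ Treg cells lacked store-operated calcium entry, the influx through CRAC channels.

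The libraries also differed in transcripts of other cell types. The summed level of 11 macrophage and monocyte markers was 267 and 304 normalized counts in the unstimulated WT libraries, against 10423 and 1647 in the labelled replicates 1 and 2. After stimulation it lay between 152 and 317 in all 4 libraries. Of the 10 macrophage markers tested, 8 were called higher in the unstimulated labelled libraries, where 1.38% of all tested genes were. Among the 8 was Adgre1, which encodes F4/80. C1qa was at 0 in both unstimulated WT libraries and in all 4 stimulated libraries. B cell markers summed to 352 and 383 in unstimulated WT libraries and to 3805 and 924 in labelled ones. After stimulation, B cell markers summed to 1106 and 234 in WT replicates 1 and 2 and to 1646 and 350 in labelled replicates 1 and 2, and NK and CD8 T cell markers to 544 and 237 and to 1142 and 396, so that replicate 1 was the higher in both genotypes. Among the Treg and T cell markers, which were detected in all 8 libraries, Ctla4 and Ikzf2 were called lower in unstimulated labelled cells, and Foxp3 was not called (log2 fold change -0.98, limma adjusted p = 0.0591). Unstimulated labelled replicate 1 thus stood furthest from WT, and replicate 2 also held more macrophage and B cell transcripts than either WT library. Results below are also given without replicate 1 where that matters. Leaving out a library leaves 1 in its group, so that the spread comes from the other groups. Calls in such fits show only how a result depends on single libraries. The share of all tested genes called in them is not given. In RNA from bulk cells, fewer cells of a type and less RNA per cell cannot be told apart.

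**Figure D1:**
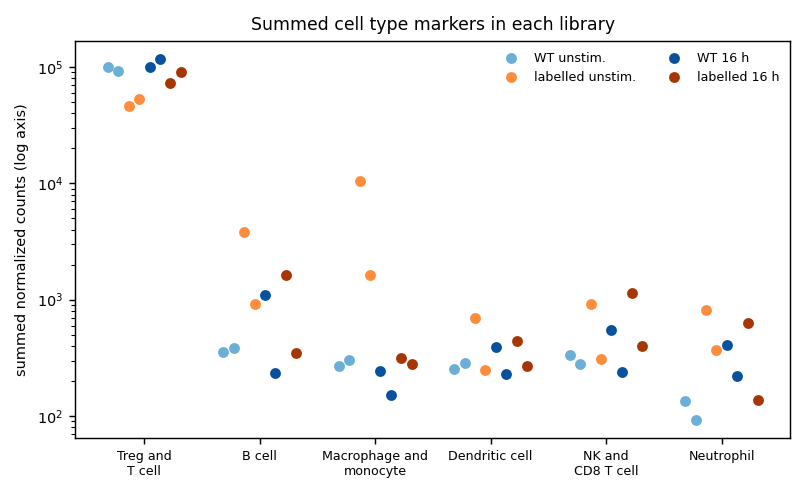
Summed normalized counts of the markers of 6 cell types in each of the 8 libraries, on a log axis, with 1 point per library coloured by group; labelled means labelled Stim1/2-deficient. The macrophage sums of the unstimulated labelled libraries are 10423 and 1647, and those of the other 6 libraries lie between 152 and 317.

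The upstream sequence of 2 members whose log2 fold changes had opposite signs is given for orientation, from RefSeq on GRCm38.p6. The window is up to 250 bases before the gene, read 5′ to 3′ on the strand of the gene. Ebi3 lies on chromosome 17 from 55952623 to 55957022, and its window is chr17:55952373-55952622 on the plus strand. Il12rb2 lies on chromosome 6 from 67285986 to 67376293, and its window is the 145 bases at chr6:67376294-67376438 on the minus strand, read here 5′ to 3′. Capitals mark GGAAA, the core that factors of the NFAT family bind.
Ebi3: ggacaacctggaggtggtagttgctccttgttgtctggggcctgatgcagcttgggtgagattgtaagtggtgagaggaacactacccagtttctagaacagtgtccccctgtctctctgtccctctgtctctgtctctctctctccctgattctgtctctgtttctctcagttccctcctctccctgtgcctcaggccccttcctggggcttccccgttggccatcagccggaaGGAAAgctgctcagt
Il12rb2: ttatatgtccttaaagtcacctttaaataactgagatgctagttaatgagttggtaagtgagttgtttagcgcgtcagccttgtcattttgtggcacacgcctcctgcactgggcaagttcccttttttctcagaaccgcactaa

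GGAAA was searched on both strands, and so was TGANTCA, a site of AP-1, which partners NFAT in T cells. The Ebi3 window held 1 match of GGAAA and no match of TGANTCA. The Il12rb2 window held neither. Among 32851 RefSeq upstream windows of 250 bases, 55.6% held GGAAA and 6.75% held TGANTCA. In the first 145 bases of these windows, the end furthest from the gene, the shares were 38.9% and 3.82%. The 145 bases of Il12rb2 are the same stretch of its window, whose other bases fell inside the annotated gene. A match or its absence is a description of these letters only. The windows of Il12a and Il6st held 0 and 2 matches of GGAAA. Il10, Il10ra, Il27ra and Il12rb1 had no entry in the table of windows used here.

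**Figure D2:**
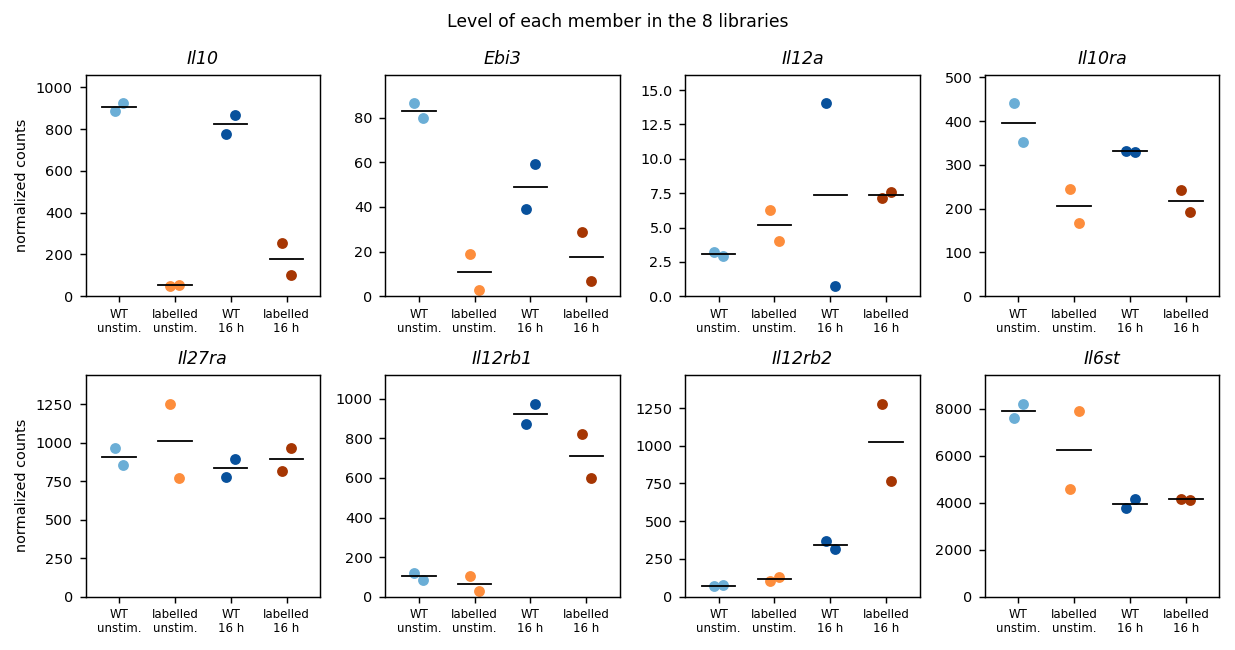
Normalized counts of each of the 8 genes in the 8 libraries, with 1 panel per gene, linear axes from 0, 1 point per library and a line at the mean of the 2 libraries of a group; labelled means labelled Stim1/2-deficient. Il10 lies at 885 and 923 in unstimulated WT libraries and at 50.3 and 56.1 in labelled ones, and Il12rb2 reaches 1278 and 768 in stimulated labelled libraries.

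Levels of different genes were compared per kilobase of the longest transcript in GENCODE M1. In unstimulated WT cells the order of mean normalized counts per kilobase was Il6st (1516), Il10 (690), Il27ra (343), Il10ra (113), Ebi3 (71.0), Il12rb1 (35.8), Il12rb2 (24.2) and Il12a (2.38). The ranges of the 2 libraries of neighbours in this order did not overlap. In unstimulated labelled cells, Il27ra (381) was second to Il6st (1199), and Il10 (40.6) lay close to Il12rb2 (39.5), with overlapping ranges, and the ranges of Il12rb2 and Il12rb1 (22.8) overlapped too. After stimulation of WT cells, Il12rb1 (322) lay next to Il27ra (315), again with overlapping ranges, below Il6st (760) and Il10 (629). In stimulated labelled cells Il6st (794) was followed by Il12rb2 (341), Il27ra (336), Il12rb1 (247) and Il10 (136), and the range of Il12rb2 overlapped those of Il27ra and Il12rb1.

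The first comparison asked how the libraries labelled Stim1/2-deficient differed from WT in unstimulated cells. Among the 7 tested members, Il10 was called lower and none was called higher. Over all tested genes 3.35% were called lower and 1.38% higher. Ebi3, Il10ra, Il12rb1 and Il6st passed in some fits that left out 1 library. Each such fit leaves 1 library in a group, and the share of all tested genes called in it is not given. These passes are therefore not read as results about the members. By sign, 5 members had a negative and 2 a positive log2 fold change, with a median of -0.90, against a median of -0.01 for all tested genes. The 2 labelled libraries lay below both WT libraries for 3 members and above both for 1, where 27.1% of all tested genes lay below and 26.5% above.

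The cytokine gene Il10 is on chromosome 1 from 131019845 to 131024970. Its normalized counts without stimulation were 885 and 923 in WT and 50.3 and 56.1 in labelled libraries. The groups lay far apart, with group means of 904 ± 27.1 and 53.2 ± 4.07 (SD, n = 2 libraries each). The level was 16.7-fold lower, a log2 fold change of -4.06 (standard error 0.36, 95% confidence interval -4.87 to -3.26, limma adjusted p = 0.00106). Without labelled replicate 1, the library with most macrophage transcripts, the log2 fold change was -3.99, from 1 labelled library.

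Ebi3, the partner subunit in IL-35 and IL-27, counted 86.3 and 79.8 in the WT libraries without stimulation, against 18.9 and 2.67 in labelled ones. The pairs did not overlap, and labelled replicate 2 held 2 reads. The log2 fold change was -3.30 (standard error 0.85, 95% confidence interval -5.18 to -1.41), and Ebi3 was not called (limma adjusted p = 0.0557). Without labelled replicate 1 of the unstimulated cells, the labelled group was 1 library of 2 reads, and the log2 fold change was -4.52. Ebi3 passed the thresholds without replicate 1 or replicate 2 of the stimulated labelled cells, at the same log2 fold change of -3.30. Those libraries enter this comparison only through the shared spread, so these passes are not read as results about Ebi3. DESeq2 on recovered reads, which called 5.25% of all tested genes lower, called Ebi3 (log2 fold change -2.90, adjusted p = 0.0140).

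Il12a, which encodes the p35 subunit of IL-12 and IL-35 and lies on chromosome 3 from 68690644 to 68698550, was near the limit of detection. Its normalized counts were 3.24 and 2.95 in unstimulated WT libraries, 6.29 and 4.01 in unstimulated labelled libraries, 14.03 and 0.76 in stimulated WT libraries and 7.15 and 7.60 in stimulated labelled libraries. Neither unstimulated WT library held more than 3 reads, and 3 reads equal 2.28 to 4.43 normalized counts depending on the library. The single high value, in stimulated WT replicate 1, came from 18 reads, and the other stimulated WT library held 1 read. No fold or test is given, and a difference in Il12a was not detectable at this depth.

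The receptor gene Il10ra is on chromosome 9 from 45253837 to 45269149. Without stimulation its normalized counts were 440 and 352 in WT and 245 and 167 in labelled libraries. The groups did not overlap. The log2 fold change was -0.96 (95% confidence interval -1.56 to -0.35), and the gene was not called (limma adjusted p = 0.0782). Without unstimulated labelled replicate 1, which leaves 1 labelled library, the log2 fold change was -1.23.

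The signal chain of IL-12, Il12rb2, was the one tested member whose labelled libraries both lay above WT in unstimulated cells. Its normalized counts were 66.9 and 78.3 in WT and 106 and 131 in labelled libraries. The log2 fold change was 0.69 (95% confidence interval 0.03 to 1.36), which was not called (limma adjusted p = 0.211). Il12rb1, on chromosome 8 from 70808360 to 70823542, encodes the chain that IL-12 and IL-23 share. It counted 120 and 85.7 in WT against 103 and 28.1, so that the groups overlapped. Its log2 fold change of -0.90 (95% confidence interval -1.99 to 0.19, limma adjusted p = 0.317) rested on labelled replicate 2. It was 0.02 without that library and -1.82 without labelled replicate 1, each time with 1 labelled library left.

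The receptor genes of IL-27 overlapped between genotypes. Il27ra is on chromosome 8 from 84030286 to 84042600, and without stimulation it counted 968 and 854 in WT and 1254 and 769 in labelled libraries. Its log2 fold change was 0.11 (95% confidence interval -0.44 to 0.66, limma adjusted p = 0.840) and became -0.24 without labelled replicate 1. Il6st is on chromosome 13 from 112464070 to 112506860, and it counted 7585 and 8206 in WT against 4593 and 7894. Labelled replicate 2 lay within the WT range and replicate 1 below it. The log2 fold change was -0.39 (95% confidence interval -0.91 to 0.13, limma adjusted p = 0.366). It was 0.00 without labelled replicate 1 and -0.78 without labelled replicate 2, each time with 1 labelled library left. Macrophage transcripts moved with the unstimulated labelled group for all of these genes, and their part in the differences was not tested. Leaving out labelled replicate 1 does not remove these transcripts, since their markers summed to 1647 in labelled replicate 2 against 267 and 304 in WT.

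After 16 h of stimulation the same question was asked of the other 4 libraries. Il10 was again the one member called lower and none was called higher, where 0.110% of all tested genes were called lower and 0.162% higher. By sign, 4 members were negative and 3 positive, with a median log2 fold change of -0.39 against 0.02 for all tested genes. The labelled libraries lay below both WT libraries for 4 members and above both for 1, where 23.1% of all tested genes lay below and 24.3% above.

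**Figure D3:**
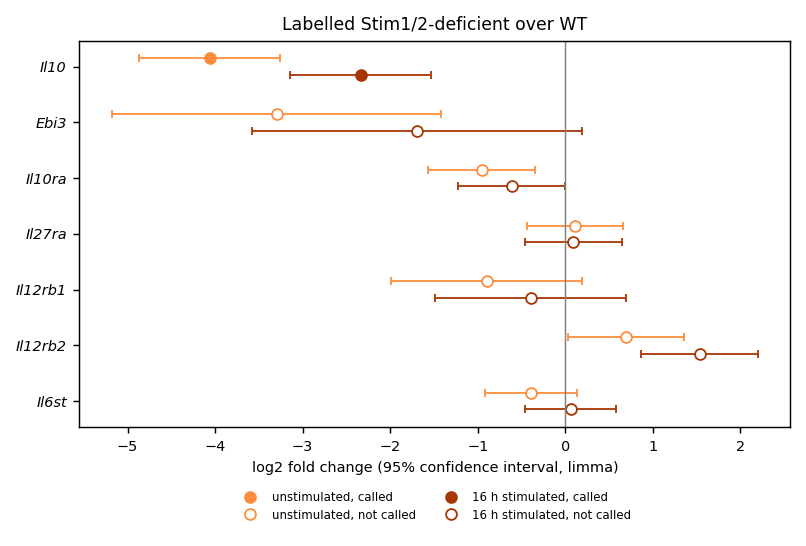
Log2 fold change of libraries labelled Stim1/2-deficient over WT for the 7 tested genes, without stimulation and after 16 h; bars are 95% confidence intervals from limma, and filled points are called. Il10 lies at -4.06 and -2.34 and is the one filled gene, and Il12rb2 lies at 0.69 and 1.54.

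The normalized counts of Il10 after stimulation were 779 and 870 in WT and 253 and 104 in labelled libraries. All 4 values were apart by group, and the labelled pair differed more from each other than the WT pair did, with group means of 824 ± 64.7 and 179 ± 106 (SD, n = 2 libraries each). The level was 5.05-fold lower, a log2 fold change of -2.34 (standard error 0.36, 95% confidence interval -3.14 to -1.53, limma adjusted p = 0.0392). The call was lost with edgeR on recovered reads (-2.21, adjusted p = 0.0594), in a limma fit to the 4 stimulated libraries alone (adjusted p = 0.108), and without stimulated labelled replicate 2 (-1.70, limma adjusted p = 0.213), either stimulated WT library (limma adjusted p = 0.244 and 0.362) or either unstimulated WT library (limma adjusted p = 0.154 and 0.149). DESeq2, which called 1.86% of all tested genes lower, kept it (adjusted p = 7.23e-07).

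Il12rb2 lay in the other direction. Its normalized counts after stimulation were 371 and 314 in WT and 1278 and 768 in labelled libraries. Even the lower labelled library exceeded the higher WT library. The level was 2.90-fold higher, a log2 fold change of 1.54 (standard error 0.30, 95% confidence interval 0.87 to 2.20), and it was not called (limma adjusted p = 0.0624). DESeq2, which called 1.54% of all tested genes higher, called it (log2 fold change 1.58, adjusted p = 1.90e-04). It passed in limma without either unstimulated labelled library, at the same log2 fold change of 1.54. Those libraries enter this comparison only through the shared spread, so these passes are not read as results about Il12rb2. A block for the replicate number, with which 1.24% of all tested genes were called higher, also gave a call (limma adjusted p = 0.0141). Stimulated labelled replicate 1, the library of the 4 with most B cell and NK and CD8 T cell transcripts, held the higher labelled value of both Il10 and Il12rb2. This library was also the higher of the pair for Ebi3, Il10ra, Il12rb1 and, narrowly, Il6st, and the lower for Il27ra. Without it, with 1 stimulated labelled library left, the log2 fold change was -2.97 for Il10 and 1.17 for Il12rb2.

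Ebi3 then counted 39.0 and 59.2 in WT and 28.6 and 6.75 in labelled libraries. The pairs did not overlap, but the interval was wide, with a log2 fold change of -1.70 (95% confidence interval -3.58 to 0.19, limma adjusted p = 0.420). Without stimulated labelled replicate 1 or 2 it was -2.66 or -0.73. Il10ra counted 333 and 329 against 243 and 192 (log2 fold change -0.61, 95% confidence interval -1.22 to -0.00, limma adjusted p = 0.363). Il12rb1 counted 873 and 976 against 822 and 599 (log2 fold change -0.39, limma adjusted p = 0.786). The labelled libraries were lower for all 3 genes, and none of these differences passed the test.

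Il27ra and Il6st showed no separation by genotype after stimulation. Il27ra counted 775 and 896 in WT and 819 and 966 in labelled libraries (log2 fold change 0.09, 95% confidence interval -0.46 to 0.65, limma adjusted p = 0.913). Il6st counted 3764 and 4152 against 4147 and 4121 (log2 fold change 0.06, 95% confidence interval -0.46 to 0.59, limma adjusted p = 0.943). Without stimulated WT replicate 1 both log2 fold changes were -0.01.

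An interaction term asked whether the difference by genotype depended on stimulation. No member was called, and of all 15419 genes 0 (0%) were called by limma and 0 by edgeR, 47 by DESeq2, and 1247 passed limma at an unadjusted p under 0.05 and 1.5-fold. The log2 fold change of Il10 differed between the states by 1.73 (95% confidence interval 0.59 to 2.87, limma adjusted p = 0.556), and by 1.09 without stimulated labelled replicate 1. For Ebi3 the interaction was 1.60 (95% confidence interval -1.06 to 4.27, limma adjusted p = 0.736), with 0.38 to 2.82 when each library was left out in turn, the ends without unstimulated labelled replicate 2 and replicate 1. For Il12rb2 the interaction was 0.84 (95% confidence interval -0.10 to 1.79, limma adjusted p = 0.627). The smaller fold of Il10 after stimulation and the larger fold of Il12rb2 were thus not shown to differ from those in unstimulated cells.

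The effect of stimulation itself was fitted within each genotype. These comparisons share libraries with the preceding ones. Unstimulated libraries were sequenced in one lane and stimulated libraries in another, so stimulation and lane cannot be told apart. In WT cells, 2 of 7 tested members were called higher (Il12rb1 and Il12rb2) and 1 lower (Il6st), where 10.2% of all tested genes were called higher and 13.1% lower. In labelled cells, 3 were called higher (Il10, Il12rb1 and Il12rb2) and 0 lower, where the shares were 13.0% and 12.0%.

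**Figure D4:**
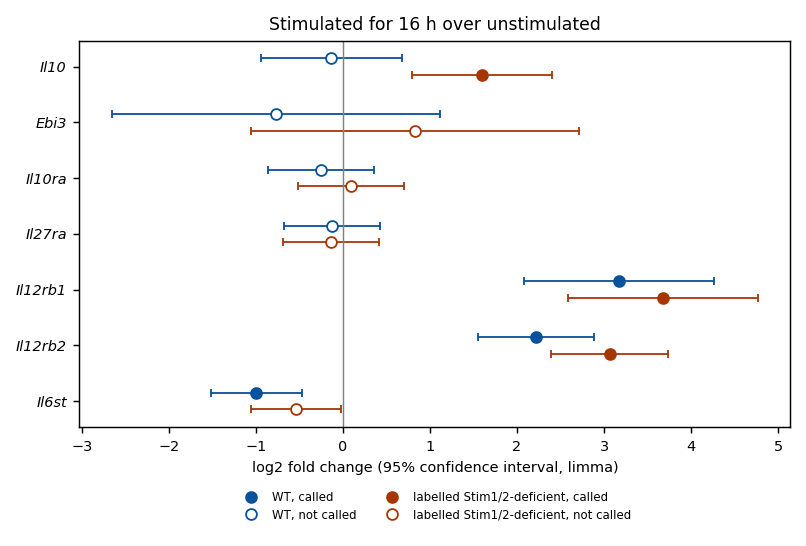
Log2 fold change of cells stimulated for 16 h over unstimulated cells for the 7 tested genes, in WT libraries and in libraries labelled Stim1/2-deficient; bars are 95% confidence intervals from limma, and filled points are called. Il12rb1 (3.17 and 3.68) and Il12rb2 (2.22 and 3.06) are filled in both genotypes.

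Both chains of the IL-12 receptor rose in both genotypes. Il12rb1 went from 103 ± 24.1 to 924 ± 72.7 normalized counts in WT cells (SD, n = 2 libraries each), 9.03-fold (limma adjusted p = 0.00262), and from 65.4 ± 52.8 to 711 ± 157 in labelled cells, 12.8-fold (limma adjusted p = 0.00111). Il12rb2 went from 72.6 ± 8.05 to 342 ± 40.6 in WT cells, 4.66-fold (limma adjusted p = 0.00154). In labelled cells it went from 118 ± 17.7 to 1023 ± 361, 8.36-fold (limma adjusted p = 3.06e-04). These calls held with each of the 8 libraries left out in turn.

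Il10 was called with stimulation in labelled cells and not in WT cells, although the interaction above did not pass. In WT cells its level was 904 ± 27.1 before and 824 ± 64.7 after stimulation (SD, n = 2 libraries each), a log2 fold change of -0.13 (95% confidence interval -0.94 to 0.67, limma adjusted p = 0.815). In labelled cells it rose 3.02-fold, from 53.2 ± 4.07 to 179 ± 106 (limma adjusted p = 0.0112). Even so, the higher stimulated labelled library, at 253, stayed below the lowest WT library, at 779. A limma fit to the 4 labelled libraries alone did not call the rise (adjusted p = 0.0761). Without stimulated labelled replicate 1, the higher of the pair, the log2 fold change was 0.95 in place of 1.59, from 1 stimulated labelled library.

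Il6st was 2.00-fold lower after stimulation of WT cells, at 3958 ± 274 against 7896 ± 439 normalized counts (SD, n = 2 libraries each, limma adjusted p = 0.0141). The call was lost without any 1 of the 4 WT libraries (limma adjusted p = 0.0752 to 0.107). It was also lost with libraries rescaled to equal totals (log2 fold change -0.48, limma adjusted p = 0.105), a scaling that moved the median of all tested genes by 0.51. In labelled cells the log2 fold change was -0.54 (95% confidence interval -1.06 to -0.02, limma adjusted p = 0.115). It was -0.93 without unstimulated labelled replicate 1, with 1 unstimulated labelled library left. Il10ra, Ebi3 and Il27ra were not called in either genotype. Their log2 fold changes were -0.25, -0.78 and -0.13 in WT cells and 0.10, 0.83 and -0.14 in labelled cells.

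The partners of these proteins were looked up by lists. Of 12 other ligands and receptors of the IL-10 family, 3 were tested and 0 were called by genotype in either state. Of all tested genes, 4.73% were called without and 0.272% with stimulation. After stimulation Il22 counted 47.54 and 69.85 in WT and 20.65 and 0.84 in labelled replicates 1 and 2, the last from 1 read. Il22 passed as lower without stimulated labelled replicate 1, where that 1 read was all that the labelled group held. Il10rb, the other chain of the IL-10 receptor, counted 256 and 310 in WT and 285 and 230 in labelled libraries without stimulation, and 264 and 314 in WT and 310 and 409 in labelled libraries with it. Its log2 fold changes were -0.14 and 0.31 without and with stimulation (limma adjusted p = 0.806 and 0.660). The other IL-12 family subunits were scarce, with at most 1.48 normalized counts of Il27, 12.9 of Il23a and 16.7 of Il12b in any library. The IL-23 receptor chain Il23r, which pairs with the product of Il12rb1, counted 213 and 313 in WT against 64.0 and 26.7 without stimulation, and 147 and 86.6 against 52.4 and 3.38 with it. Labelled libraries were below WT in both states, but Il23r was not called (log2 fold change -2.61, limma adjusted p = 0.138, and -2.90, limma adjusted p = 0.191). In unstimulated cells it passed the thresholds without either stimulated labelled library, at the same log2 fold change. Those libraries enter that comparison only through the shared spread, so these passes are not read as results about Il23r. After stimulation the log2 fold change of Il23r was -4.70 without labelled replicate 1 and -1.09 without labelled replicate 2. Each time 1 labelled library was left. The low value of 3.38, in labelled replicate 2, came from 4 reads.

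Of 13 genes for IL-6 family ligands and receptors that use gp130, 7 were tested and 0 were called by genotype in either state. The shares of all tested genes were 4.73% without and 0.272% with stimulation. Il6ra, which presents IL-6 to gp130, counted 2949 and 2628 in WT and 4164 and 3044 in labelled libraries without stimulation (log2 fold change 0.35, limma adjusted p = 0.476). After stimulation it counted 958 and 1502 against 1001 and 1418 (-0.01, limma adjusted p = 0.993).

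Kinases, STAT factors and feedback inhibitors downstream of the receptors were listed too. All 16 were tested, and 0 were called by genotype in either state. Of all tested genes, 4.73% were called without and 0.272% with stimulation, so a count of 0 was near the share over all genes. Median log2 fold changes were -0.22 without and 0.29 with stimulation. Without unstimulated labelled replicate 1, Jak1 and Stat5b passed as higher and Socs2 as lower. Without unstimulated labelled replicate 2, Jak2, Stat3, Stat5a, Cish and Ptpn2 passed as lower. After stimulation a gene passed without labelled replicate 1. Each of these fits leaves 1 labelled library in the comparison. Jak1, Jak2 and Tyk2, the kinases bound to these receptors, had log2 fold changes of 0.26, -0.99 and -0.32 in unstimulated cells (limma adjusted p = 0.555, 0.186 and 0.479) and of 0.33, 0.70 and -0.01 after stimulation (0.599, 0.490 and 0.992). Unstimulated Jak2 counted 13056 and 14392 in WT and 4056 and 11778 in labelled replicates 1 and 2, and its log2 fold change was -0.22 without replicate 1. That of Jak1 was then 0.64. Stat3 and Stat4 had -0.40 and 0.17 without stimulation (limma adjusted p = 0.561 and 0.687) and 0.42 and 0.28 with it (0.669 and 0.629). Unstimulated Stat3 counted 8973 and 8730 in WT and 4140 and 10843 in labelled replicates 1 and 2, and its log2 fold change turned to 0.29 without replicate 1. Among 14 genes that respond to STAT3 or STAT4, 2 were called lower in unstimulated labelled cells, Batf and Pim1, where 3.35% of all tested genes were. After stimulation 1 was called lower, Batf, where 0.110% of all tested genes were. Pim1, a survival kinase, counted 2810 and 2604 in WT against 857 and 1731 without stimulation (log2 fold change -1.15, limma adjusted p = 0.0498). Its call was lost without any one of 7 of the 8 libraries, all but unstimulated labelled replicate 2. The count of 2 fell without either WT library of either state and rose without either unstimulated labelled library. With DESeq2, which called 8.57% of all tested genes in either direction, it was 4. The count of 1 after stimulation was lost without either WT library of either state or stimulated labelled replicate 2, and rose without any other library. The share of all tested genes called with a library left out is not given.

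Transcription factors known to act on Il10 in T cells were listed as well, several of which the study itself names from these libraries, so that their direction is not independent evidence. Of 16 tested, 8 were called lower and 0 higher in unstimulated labelled cells, where 3.35% and 1.38% of all tested genes were, with a median log2 fold change of -1.09. Prdm1, which encodes BLIMP-1, counted 2050 and 1637 in WT and 382 and 196 in labelled libraries (log2 fold change -2.74, limma adjusted p = 0.00538). Batf, an AP-1 family factor, counted 881 and 734 against 224 and 162 (-2.07, limma adjusted p = 0.00593). Both genes were apart by group without overlap. Batf, Junb and Tbx21 were also listed above as genes that respond to STAT3 or STAT4. The calls of Batf in both lists are therefore the same result.

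Maf, which encodes c-MAF, counted 3137 and 3587 in WT and 1518 and 668 in labelled libraries without stimulation (log2 fold change -1.73, limma adjusted p = 0.0381). The other 5 called factors were Nfil3 (-2.61), Bhlhe40 (-2.28), Irf4 (-1.90), Ahr (-1.69) and Nfatc1 (-0.80), with limma adjusted p from 0.00593 to 0.0480. After stimulation only Batf was called among the 16, with 1379 and 1186 against 464 and 305 (-1.76, limma adjusted p = 0.0392). Irf4 and Bhlhe40 then had log2 fold changes of -0.37 and -0.09. The count of 8 fell to 0 without either unstimulated WT library and stayed between 6 and 9 without any one of the other 6 libraries. The count of 1 after stimulation was lost without either unstimulated WT library, either stimulated WT library or stimulated labelled replicate 2. It rose without either unstimulated labelled library or stimulated labelled replicate 1, the last of which leaves 1 stimulated labelled library. The share of all tested genes called in those fits is not given. With DESeq2 it was 9 (7 lower and 2 higher, where DESeq2 called 1.86% of all tested genes lower and 1.54% higher).

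**Figure D5:**
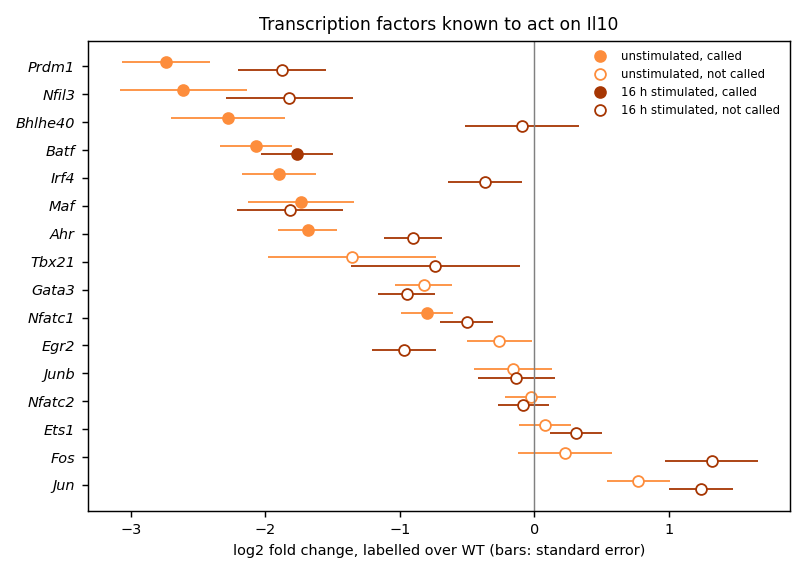
Log2 fold change of libraries labelled Stim1/2-deficient over WT for 16 transcription factors known to act on Il10 in T cells, ordered by the value in unstimulated cells; bars are standard errors from limma, and filled points are called. Without stimulation 8 factors are filled, all below 0, and after 16 h Batf alone is.

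The genes whose log2 levels ran most like those of a member over the 8 libraries were found among 9147 genes whose mean reached 100 normalized counts. The 8 libraries fall into 4 groups, so a high Pearson correlation mostly reflects the same group pattern. For Il10 these genes were Lamc1 (r = 0.99), Msrb3 (0.99) and Pdcd1 (0.98), of which Pdcd1 encodes the inhibitory receptor PD-1. For Il12rb2 they were Exog (0.98), Pml (0.97) and Tgtp2 (0.97), and for Ebi3 S100a11 (0.99), Clspn (0.99) and Tmbim1 (0.99). Il10ra ran with Kif14, Ankrd6 and Ccnb2 (all 0.99), Il12rb1 with Wdr73 (1.00), Mrps16 (0.99) and Mtx2 (0.99), and Il6st with Tbc1d15 (1.00), Tomm34 (0.99) and Arid5b (0.99). Il27ra, whose group means differed least among the 7 tested members, ran with Pcyox1 (0.95), Acp2 (0.93) and Zfp827 (0.92).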

How the data were processed

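From sorted Treg cells, 8 poly-A RNA libraries were sequenced as single reads. Per the labels' processing notes, bcl2fastq 1.8.4, STAR 2.7, DESeq2 and mm10 were used, whereas the methods name Bowtie on NCBIM37, unique reads, Picard and HTSeq. The table holds no coordinates, and those given are of RefSeq GRCm38.p6, matched by symbol (35095 of 52459 symbols matched). The deposited signal is the number of reads on a gene after the authors' division by a size factor for the library. Whole reads were recovered from 100% of values (tolerance 0.011 normalized counts), and the factors of DESeq2 differed from this scaling by 0.000327% at most.

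The labels' genotype and stimulation gave 4 groups of 2 libraries. With a pseudocount of 1, log2 values of genes whose mean reached 10 normalized counts went into limma 3.58.1 (trend, 1 spread for the 4 groups, R 4.3.3). Tests were 2-sided with Benjamini-Hochberg adjustment within each contrast. The study used DESeq2, an alternative here since normalized counts were deposited. Other settings were pseudocounts of 0.1 and 5, no filter or a minimum mean of 100, equal totals or equal upper quartiles, edgeR 4.0.16 and DESeq2 1.42.0 on recovered reads, limma on only the 4 libraries compared, a block for the replicate number, other thresholds and each library left out. Named genes are all members, called genes of the lists, direct partners and, for each tested member, the 3 genes most alike by Pearson correlation. The values of 1 direct partner are not reported here. The members and lists were chosen with earlier results of these data known. Tests were checked on simulated data. Precision is limited by 2 libraries per group and, below about 10 normalized counts, by reads.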

Additional observations from a re-analysis of the deposited data

How the results depend on the processing

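Over 35 results for single genes and 597 alternatives, 548 kept direction and side of the threshold, 15 lost and 14 gained a call, and 20 changed sign. The call of Il10 in unstimulated cells held in every alternative run, with log2 fold changes from -4.14 to -3.90. The 1 member called there became 2 with a pseudocount of 5 and with DESeq2 (Il10 and Ebi3) and 4 at an unadjusted p (where 19.7% of all tested genes passed). More members also passed in some fits with a library left out. The 1 member called after stimulation became 0 with a pseudocount of 0.1, with every gene, with edgeR and with the 4 libraries alone. It became 2 with a mean of at least 100 and with DESeq2 (Il10 and Il12rb2), and 3 at an unadjusted p (12.6% of all tested genes). With a library left out, the call was lost in some fits and others passed more members. The interaction gave 0 called members, and 1 at an unadjusted p (Il10, with 8.09% of all tested genes). The counts of 3 for stimulation stayed within 1.5 times. Libraries rescaled to equal totals moved the median of all tested genes by 0.12 for genotype in unstimulated cells, by 0.51 for stimulation of WT cells and by 0.38 for stimulation of labelled cells. They turned the small effects of stimulation in WT cells on Il10 (0.38), Il10ra (0.27) and Il27ra (0.39) and in labelled cells on Il27ra (0.25). Equal upper quartiles moved the median by 0.16 for genotype in unstimulated cells and turned none. The cause of these changes was not tested beyond what each setting removes.

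With a library left out, sign changes were seen for genotype in unstimulated cells in Il27ra (range -0.24 to 0.46), Il12rb1 (-1.82 to 0.020) and Il6st (-0.78 to 0.00090), for genotype in stimulated cells in Il27ra (-0.025 to 0.21) and Il6st (-0.0062 to 0.14), for the interaction in Il27ra (-0.37 to 0.33) and Il12rb1 (-0.41 to 1.42), and for stimulation of labelled cells in Il10ra (-0.18 to 0.37), Ebi3 (-0.39 to 2.04) and Il27ra (-0.49 to 0.21).

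Replicate numbers are shared by both stimulated groups and by both labelled groups, with 2 pairs each, and nothing says that a number marks a shared sort. Same-numbered libraries deviated together with a correlation of 0.17 and 0.26 over genes. The replicate block raised the called members after stimulation from 1 to 2 (Il10 and Il12rb2) and the called share of all tested genes from 0.272% to 2.55%. The unstimulated genotype groups share no number.

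By DESeq2, 525 genes were called by genotype after stimulation, against 42 by limma and 1 by edgeR, and 1321 against 730 and 484 in unstimulated cells. With 2 libraries per group, the 95% intervals of the 7 tested members span more than 1 log2 unit.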
